A study of Culter alburnus with 9 samples.

Results

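Perilipins and the other proteins of the lipid droplet surface were examined in trunk muscle of Culter alburnus carrying edited runx2b. The set was taken from the annotated count table by name: every locus whose Swiss-Prot match is a perilipin, a CIDE protein, Pnpla2 or G0s2, or whose description in the NR protein database starts with perilipin. This gave 11 of the 29791 loci in the table, namely 4 perilipins, 3 CIDE loci, 3 loci matched to Pnpla2 and 1 to G0s2. Of these, 5 had enough counts for a test, 3 had only a few counts and 3 had 0 counts in all 9 libraries.

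The fish fell into 3 genotypes: homozygous runx2b mutants (Ho), heterozygous mutants (He) and wild-type fish (Ctrl), with 3 fish and 3 libraries of each. All were F1 juveniles aged 2 months from founders edited with CRISPR/Cas9 that carried 1 type of runx2b mutation, so Ctrl fish were also progeny of edited founders. The fish were picked for a typical intermuscular bone phenotype of their genotype (absent in Ho, reduced in He, normal in Ctrl) and for similar body size, and fish were not pooled. The tissue was muscle with its myosepta, enriched by dissection but not purified, so it could hold fat, pigment cells and skin.

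A lipid droplet is a core of neutral lipid, mainly triglyceride and sterol ester, under a single layer of phospholipid, and it is the place where cells store fat. Perilipins coat that surface and control the access of lipases to the core. CIDE proteins make droplets fuse and grow in mammals, Pnpla2 (adipose triglyceride lipase) takes the first fatty acid off a stored triglyceride, and G0s2 inhibits Pnpla2 in mammals. Perilipin 1 belongs to fat cells in mammals, perilipin 2 is found in most cells, perilipin 3 moves between cytosol and small droplets, and perilipin 5 sits on droplets of oxidative tissues. Perilipin 6 occurs in fishes, and in zebrafish it coats the carotenoid droplets of xanthophores, the yellow pigment cells of the skin.

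The libraries held 15869084 to 21009438 counts, which were scaled with TMM (factors 0.708 to 1.40), and 14755 loci passed the filter on low counts. Values are given as CPM, counts scaled to a common library size in this way, and a difference passed the test at an adjusted p below 0.05. The edited gene itself had few counts: 11, 5 and 2 in Ho, 0, 8 and 3 in He, and 11, 27 and 0 in Ctrl, so its transcript level did not check the labels. The test of edgeR passed 0% of the 14755 loci in each of the 3 comparisons, with 1540 loci at an unadjusted p below 0.05 between He and Ctrl, 959 between Ho and Ctrl and 1002 between Ho and He. On the same counts DESeq2 passed 252, 63 and 19 loci in these comparisons. Markers of fast muscle made up 273300 to 370600 CPM in Ho, 280200 to 472700 in He and 220900 to 399800 in Ctrl, so transcripts of the labelled tissue were abundant in every fish. TPM scales by transcript length and library and does not use the TMM factors. As TPM these markers differed less, with 219200 to 270500 in Ho, 237300 to 266300 in He and 227000 to 270700 in Ctrl. How much of this came from the TMM factors and how much from length was not tested. Skin epithelium markers varied widely between fish, with 685 to 1673 CPM in Ho, 315.6 to 605.9 in He and 571.4 to 3702 in Ctrl.

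Perilipin 6 (ABG768_008896, chromosome 16, 26779309 to 26790927 in assembly ASM4018292v1) had the largest log2 fold change among the 5 members past the filter. The closest Swiss-Prot match of this locus is Plin5, whereas its NR match is perilipin 6, and that name is used here. Its level was 2.63, 1.95 and 1.88 CPM in the 3 Ho fish, 0.355, 1.63 and 0.382 CPM in the 3 He fish and 7.56, 3.77 and 2.23 CPM in the 3 Ctrl fish. All He fish lay below all Ctrl fish and below all Ho fish, whereas Ho and Ctrl overlapped. The underlying counts were low, with 49, 34 and 28 in Ho, 5, 37 and 6 in He and 170, 84 and 30 in Ctrl.

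Between He and Ctrl the log2 fold change of perilipin 6 was -2.45 with a standard error (SE) of 0.62, a level 5.47-fold lower in He, and edgeR gave an adjusted p of 0.359. By DESeq2 it fell by 2.46 on the log2 scale (SE 0.65, DESeq2 adjusted p = 0.0173). That was the only member passed by DESeq2 in any of the 3 comparisons with all 9 fish, and 1.19% of the loci with an adjusted p were passed in this direction. The size of the difference depended on single fish. The DESeq2 call was lost without Ctrl 1 (-1.87, adjusted p = 0.392), without Ctrl 2 (-2.59, adjusted p = 0.126), without He 1 (-2.12, adjusted p = 0.138) and without He 3 (-2.14, adjusted p = 0.147). Without He 2, the He fish with the highest level, the log2 fold change was -3.59 with an adjusted p of 0.000191 from DESeq2. Without Ctrl 3, the Ctrl fish with the lowest level, it was -2.77 with an adjusted p of 0.00214 from DESeq2. In all 9 of these fits the direction was the same, and in edgeR no adjusted p was below 0.0835.

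Homozygous fish stood between the other genotypes in their mean level of perilipin 6. It averaged 2.15 ± 0.412 CPM in Ho, 0.789 ± 0.729 CPM in He and 4.52 ± 2.74 CPM in Ctrl (SD, n = 3 fish each). The log2 fold change was -1.07 between Ho and Ctrl (SE 0.58, edgeR adjusted p = 0.807) and 1.38 between Ho and He (SE 0.62, edgeR adjusted p = 0.730). Neither passed DESeq2 with all fish (adjusted p = 0.856 and 0.598). Without He 2 the difference between Ho and He was 2.54 on the log2 scale and passed DESeq2 (adjusted p = 0.0444).

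**Figure D1:**
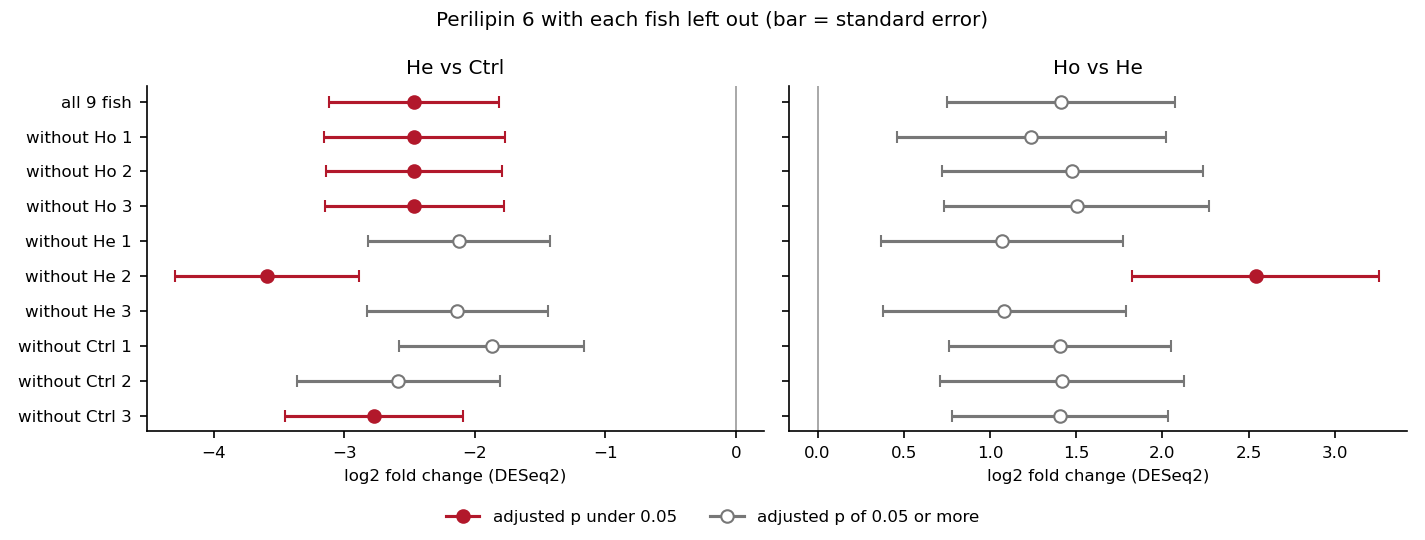
Log2 fold change of perilipin 6 from DESeq2 (horizontal axis, bars are standard errors) with all 9 fish and with each fish left out, between He and Ctrl (left) and Ho and He (right). Filled points have an adjusted p below 0.05. All estimates between He and Ctrl lie below 0, from -3.59 without He 2 to -1.87 without Ctrl 1, and 5 of the 9 fits with a fish left out keep the call.

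The M6PRBP1 locus (ABG768_026727, chromosome 8, 26543454 to 26549065) is described as mannose-6-phosphate receptor binding protein 1, the older name of perilipin 3, although its closest Swiss-Prot match is perilipin 2. It stood at 7.62, 3.56 and 4.43 CPM in Ho, 1.78, 2.82 and 2.23 CPM in He and 7.96, 7.66 and 3.49 CPM in Ctrl. Every He fish was again below every Ctrl fish and every Ho fish, and Ho overlapped with Ctrl. The log2 fold change between He and Ctrl was -1.48 (SE 0.39, 2.79-fold lower, adjusted p of 0.359 in edgeR and 0.0528 in DESeq2). Leaving out Ctrl 3, Ho 1 or Ho 2 brought it past DESeq2 (adjusted p = 0.00226, 0.0485 and 0.0467). Those were 3 of 9 such fits, and the DESeq2 adjusted p reached 0.509 among the others. Without Ctrl 1 the log2 fold change from DESeq2 was -1.28. In edgeR 0 of the 9 fits passed. Leaving out Ctrl 3 also gave the most loci passed by DESeq2 in this comparison. Between Ho and He the log2 fold change of M6PRBP1 was 1.18 (SE 0.39, edgeR adjusted p = 0.730), and between Ho and Ctrl -0.30 (edgeR adjusted p = 0.934).

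PLIN2 (ABG768_007373, chromosome 15, 13732438 to 13736752), the perilipin of most cell types in mammals, was ordered differently. Its level was 4.40, 5.63 and 1.88 CPM in Ho, 1.85, 2.51 and 3.82 CPM in He and 2.09, 2.11 and 0.668 CPM in Ctrl. The means were 3.97 ± 1.91 CPM in Ho, 2.73 ± 1.00 CPM in He and 1.62 ± 0.825 CPM in Ctrl (SD, n = 3 fish each), but all 3 genotypes overlapped. The log2 fold change was 1.27 between Ho and Ctrl (SE 0.51, adjusted p of 0.738 in edgeR and 0.525 in DESeq2), 0.72 between He and Ctrl (edgeR adjusted p = 0.647) and 0.54 between Ho and He (edgeR adjusted p = 0.843). None of these passed, and no fish left out brought one past either test.

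The fat cell perilipin, Plin1 (ABG768_011138, chromosome 18, 35828802 to 35850679), had 0 counts in all 9 libraries. Over their 159606998 counts this allows a level of up to 0.0186 CPM, a limit that covers counting error only. The list of adipocyte markers nevertheless summed to 98.68 to 118.4 CPM in Ho, 75.04 to 101 CPM in He and 90.46 to 133.2 CPM in Ctrl over 12 loci. Much of this came from CFD and SLC2A4, a glucose transporter, which averaged 30.84 and 25.96 CPM in Ctrl. The FABP4 loci of the list had 1 and 0 counts. Adiponectin (ADIPOQ, ABG768_017225), a hormone made by fat cells, averaged 6.82 ± 4.46 CPM in Ho, 6.38 ± 2.27 CPM in He and 9.83 ± 2.36 CPM in Ctrl (SD, n = 3 fish each). The other tested adiponectin locus (ABG768_013236) had more counts over all fish (2384, against 1247). Neither of these loci passed edgeR or DESeq2 in any comparison. Which cells these transcripts came from was not tested.

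**Figure D2:**
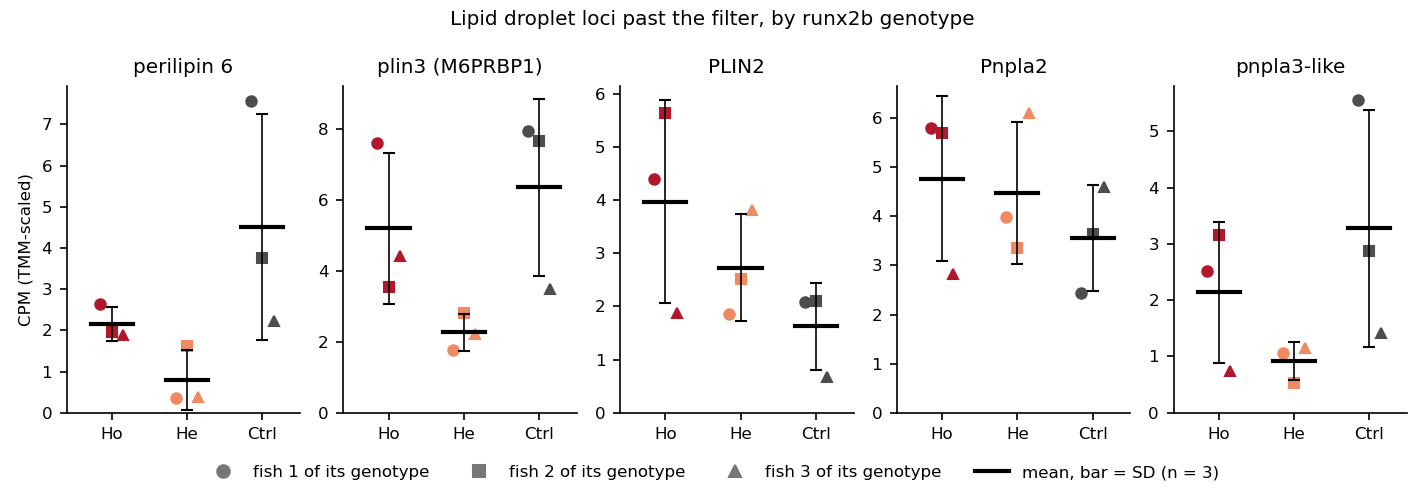
Level of the 5 members past the filter on low counts (vertical axis, CPM after TMM scaling, starting at 0) in each fish, by genotype. Symbols mark fish 1 to 3 within a genotype, without pairing across genotypes, and bars give the mean and SD. The 3 He fish lie below the 3 Ctrl fish for perilipin 6, plin3 (M6PRBP1) and pnpla3-like, and the genotypes overlap for PLIN2 and Pnpla2.

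CIDE transcripts were at or near 0. Cidea (ABG768_017600, chromosome 23) and Cideb (ABG768_024814, chromosome 7) had 0 counts in all libraries, with the same limit of 0.0186 CPM. Cidec (ABG768_023559, chromosome 6, 1359271 to 1364646), which in mammals drives the growth of the large droplets of fat cells, had 2, 6 and 1 counts in Ho, 0, 0 and 2 in He and 0, 1 and 0 in Ctrl. All 3 Ho fish had at least 1 count, against 1 fish in He and 1 in Ctrl. The ratio of Ho to Ctrl was 10.3 (95% exact interval 1.43 to 451) and that of Ho to He 4.64 (0.960 to 44.1), intervals that cover counting error only and leave out the spread between fish. Fitted without the filter on low counts, Cidec had a log2 fold change of 2.93 between Ho and Ctrl with an SE of 1.49 and an edgeR adjusted p of 0.834, and of 1.93 between Ho and He with an edgeR adjusted p of 0.804. DESeq2 on every locus with a count gave it no adjusted p.

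Lipases of the droplet gave 2 loci past the filter. Pnpla2 (ABG768_017864, chromosome 24, 5657278 to 5670270) stood at 5.79, 5.69 and 2.82 CPM in Ho, 3.98, 3.35 and 6.11 CPM in He and 2.44, 3.63 and 4.60 CPM in Ctrl. The genotypes overlapped fully. Its log2 fold change was 0.34 between He and Ctrl (SE 0.36, edgeR adjusted p = 0.775), 0.43 between Ho and Ctrl (edgeR adjusted p = 0.886) and 0.10 between Ho and He (edgeR adjusted p = 0.973). The sign between He and Ctrl turned with the scaling (-0.045 by library totals), so no direction is given for this lipase.

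The locus described as patatin-like phospholipase domain containing 3 (ABG768_020924, chromosome 4, 4904699 to 4912742), here called pnpla3-like, has Pnpla2 as its closest Swiss-Prot match. PNPLA3 in humans is a droplet protein related to Pnpla2 that acts on triglycerides and retinyl esters. Its level was 2.52, 3.16 and 0.739 CPM in Ho, 1.07, 0.529 and 1.15 CPM in He and 5.56, 2.87 and 1.41 CPM in Ctrl. Every He fish lay below every Ctrl fish, while Ho overlapped with both. The log2 fold change was -1.87 between He and Ctrl (SE 0.63, adjusted p of 0.387 in edgeR and 0.151 in DESeq2), -0.62 between Ho and Ctrl (edgeR adjusted p = 0.899) and 1.25 between Ho and He (edgeR adjusted p = 0.740). Without Ctrl 3 the difference between He and Ctrl passed DESeq2 (adjusted p = 0.0246). That was 1 of 9 fits with a fish left out, and the DESeq2 adjusted p reached 0.924 among the others. Without Ctrl 1 the log2 fold change from DESeq2 was -1.24. In edgeR 0 of the 9 fits passed.

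A further Pnpla2 copy lies on chromosome 24 (ABG768_018157, 15657825 to 15660573), and it had 2, 0 and 1 counts in the Ho fish, against 0 in every He and Ctrl fish. G0s2 (ABG768_001508, chromosome 10, 1796644 to 1797741), the inhibitor of Pnpla2, had 0 counts in all Ho fish, 0, 2 and 0 in He and 1, 3 and 0 in Ctrl. A count of 0 over a genotype allows up to 0.0589 CPM in Ho, 0.0572 in He and 0.0515 in Ctrl. How the authors' counting shared reads among gene copies was not given in the sources used here, so the split between the Pnpla2 loci is uncertain.

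Levels can be set beside each other between genes only per transcript length, as TPM. Mean TPM in Ho was 3.46 for M6PRBP1, 2.68 for PLIN2, 1.78 for pnpla3-like, 1.29 for Pnpla2 and 0.927 for perilipin 6. In He the order was PLIN2 (1.67), M6PRBP1 (1.41), Pnpla2 (1.08), pnpla3-like (0.647) and perilipin 6 (0.340). In Ctrl it was M6PRBP1 (5.68), pnpla3-like (3.57), perilipin 6 (2.57), PLIN2 (1.47) and Pnpla2 (1.16). Neighbours in each of these orders overlapped between fish. Within every single Ctrl fish, however, M6PRBP1, pnpla3-like, perilipin 6 and PLIN2 kept this order in TPM. Perilipin 6 nevertheless had more counts than pnpla3-like in each Ctrl fish (170, 84 and 30, against 125, 64 and 19). Their listed lengths were close (1455 and 1476 bases), so the order of this pair rests on the deposited TPM and is uncertain. Pnpla2 was above pnpla3-like in every He fish, and PLIN2 above pnpla3-like in every Ho fish. The other neighbours changed places in some fish. By their mean TPM over all fish the 5 loci stood between the percentiles 31.5 (Pnpla2) and 65.4 (M6PRBP1) of the loci tested, so none was among the abundant transcripts of this tissue.

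**Figure D3:**
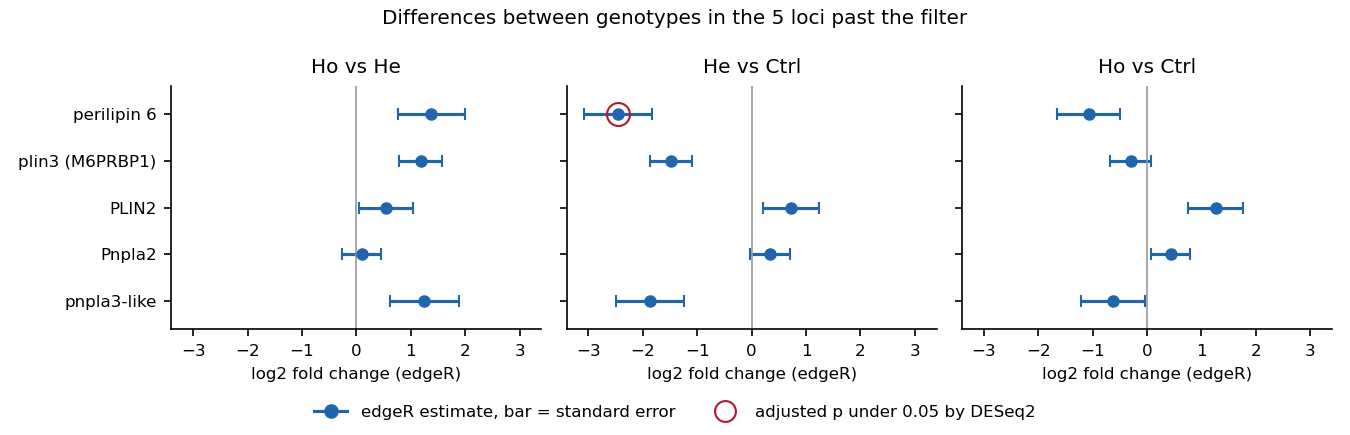
Log2 fold change from edgeR (horizontal axis, points, with bars of 1 standard error) of the 5 members past the filter in the 3 comparisons. The ring marks the only adjusted p below 0.05 from DESeq2, perilipin 6 between He and Ctrl. Perilipin 6, plin3 (M6PRBP1) and pnpla3-like lie at -2.45, -1.48 and -1.87 between He and Ctrl, and all 5 members lie above 0 between Ho and He. Pnpla2 lies at 0.097 there, and its sign turned with some fish left out.

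Set against all loci tested, the 5 members had a median log2 fold change of -1.48 between He and Ctrl, where the median of all loci was -0.0067. Perilipin 6, M6PRBP1 and pnpla3-like did not overlap between He and Ctrl, and 8.32% of all loci tested were lower in He without overlap. The same 3 had an unadjusted p below 0.05 from edgeR, as did 6.3% of all loci in that direction. Between Ho and Ctrl the median of the members was -0.30, against -0.014 for all loci. No member was without overlap there (5.92% of all loci were higher and 5.32% lower without overlap), and PLIN2 had an unadjusted p below 0.05, as did 3.59% of all loci in the higher direction. Between Ho and He the median was 1.18, against 0.014 for all loci. Perilipin 6 and M6PRBP1 were higher in Ho without overlap, as were 6.03% of all loci, and M6PRBP1 had an unadjusted p below 0.05, as did 4% of all loci in that direction. DESeq2 passed 0 members between Ho and Ctrl, where 0.34% of loci were passed as higher and 0.0971% as lower, and 0 between Ho and He, where it passed 0.092% as higher and 0.0425% as lower. Between He and Ctrl it passed 0 members as higher, against 0.628% of loci. The comparisons of He with Ctrl and of Ho with He share the He fish, and those with Ctrl share the Ctrl fish, so their values are not independent. At an adjusted p below 0.01 and a log2 fold change of at least 1, the present DESeq2 fit passed 0 members between He and Ctrl, against 0.556% of loci.

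Other genes of the droplet pathway gave few calls. Of 14 loci for droplet lipolysis, members included, 9 were tested and 0 passed edgeR or DESeq2 in any comparison. At an unadjusted p below 0.05 from edgeR there was 1, the pnpla3-like locus, lower in He than in Ctrl. The median log2 fold change was -0.038 between He and Ctrl, 0.066 between Ho and Ctrl and 0.13 between Ho and He. ABHD5 (ABG768_008375), which activates Pnpla2 in mammals, averaged 3.36 ± 0.818 CPM in Ho, 3.09 ± 0.872 CPM in He and 4.83 ± 0.989 CPM in Ctrl (SD, n = 3 fish each). Its log2 fold change between He and Ctrl was -0.65 (SE 0.29, edgeR adjusted p = 0.482), and He and Ctrl did not overlap. LIPA (ABG768_004533), by name the acid lipase of the lysosome but described as gastric triacylglycerol lipase, had -0.50 (edgeR adjusted p = 0.589).

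Of 34 loci for triglyceride synthesis and droplet assembly, 29 were tested, and 0 passed edgeR, with 1 higher and 1 lower at an unadjusted p below 0.05 in each comparison. The medians lay at -0.017, -0.016 and 0.0073 between He and Ctrl, Ho and Ctrl, and Ho and He. By DESeq2 1 locus passed, hsd17b12a (ABG768_018241), named for an enzyme of very-long-chain fatty acid elongation. It stood at 10.88, 12.41 and 1.68 CPM in Ho, 0.639, 1.36 and 1.08 CPM in He and 4.215, 2.147 and 1.41 CPM in Ctrl. It was higher in Ho than in He by DESeq2 (3.02 on the log2 scale, DESeq2 adjusted p = 0.0260). Ho overlapped with Ctrl (1.70, DESeq2 adjusted p = 0.440), and He lay below Ctrl without overlap (-1.31, DESeq2 adjusted p = 0.497). The third Ho fish was close to the He fish, whereas the others were far above. The call was lost without He 1, Ho 1 or Ho 2 (DESeq2 adjusted p = 0.246, 0.205 and 0.380). Lpin1 (ABG768_014603), a phosphatidate phosphatase that makes the diglyceride precursor of triglyceride, stood at 20.59, 15.05 and 13.8 CPM in He, against 6.61, 5.05 and 10.91 CPM in Ctrl. He and Ctrl did not overlap, with a log2 fold change of 1.14 (SE 0.32, adjusted p of 0.359 in edgeR and 0.0640 in DESeq2). The other Lpin1 locus (ABG768_010003) had more counts over all fish (9027, against 1672) and passed neither test in any comparison. ACSL1 (ABG768_006924), which activates long-chain fatty acids with coenzyme A, had -0.88 between He and Ctrl (edgeR adjusted p = 0.418). The other ACSL1 locus (ABG768_000347), with 3820 counts against 6547, passed neither test. AGPAT1 (ABG768_014957), an acyltransferase of the same pathway, had -0.78 between Ho and Ctrl (SE 0.19, edgeR adjusted p = 0.640) and did not overlap.

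Among 30 loci for fatty acid uptake and regulators 21 were tested, 0 passed edgeR and 1 passed DESeq2. At an unadjusted p below 0.05 from edgeR there were 0 higher and 1 lower between He and Ctrl, 1 higher and 1 lower between Ho and Ctrl, and 3 higher and 0 lower between Ho and He. The medians were -0.38 between He and Ctrl, 0.27 between Ho and Ctrl and 0.51 between Ho and He. FABP7 (ABG768_013796), a small carrier of fatty acids in the cytosol, had 2, 2 and 0 counts in He, against 189, 37 and 11 in Ctrl, and fell by DESeq2 (-5.56 on the log2 scale, DESeq2 adjusted p = 0.000696). In Ho it had 8, 31 and 12 counts. Without Ctrl 1, which held most of its counts, the value was -4.02 and DESeq2 gave no adjusted p. Other tested FABP7 loci (ABG768_009671 and ABG768_014483), with 372 and 113 counts over all fish against 292 here, passed neither test. The loci with FABP4, the adipocyte form, as Swiss-Prot match had 1 and 0 counts over all fish, whereas a locus matched to FABP3 (ABG768_011686), the form of heart and muscle, is described as fatty acid binding protein 4a and had 10005 counts. Its log2 fold change was 0.064 between He and Ctrl and 0.21 between Ho and Ctrl (adjusted p of 0.966 and 0.950 in edgeR). Lipoprotein lipase, which frees fatty acids from circulating lipoproteins, had 3 loci, of which 2 have neighbouring locus tags. LPL (ABG768_002032) stood at 5.57, 7.78 and 4.30 CPM in Ho, against 2.31, 2.46 and 2.60 CPM in Ctrl. Ho and Ctrl did not overlap, and the log2 fold change was 1.26 (SE 0.35, adjusted p of 0.671 in edgeR and 0.169 in DESeq2). Its neighbour LPL (ABG768_002033) had 0.97 (SE 0.48, edgeR adjusted p = 0.783), and the remaining LPL locus (ABG768_013658) had 0.048 between Ho and Ctrl and -0.88 between He and Ctrl (adjusted p of 0.990 and 0.524 in edgeR). Slc27a1 (ABG768_001322), a fatty acid transporter of the membrane, had -0.89 between Ho and Ctrl (edgeR adjusted p = 0.758). The other SLC27A1 locus (ABG768_019883) had more counts over all fish (9769, against 1220) and passed neither test.

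**Figure D4:**
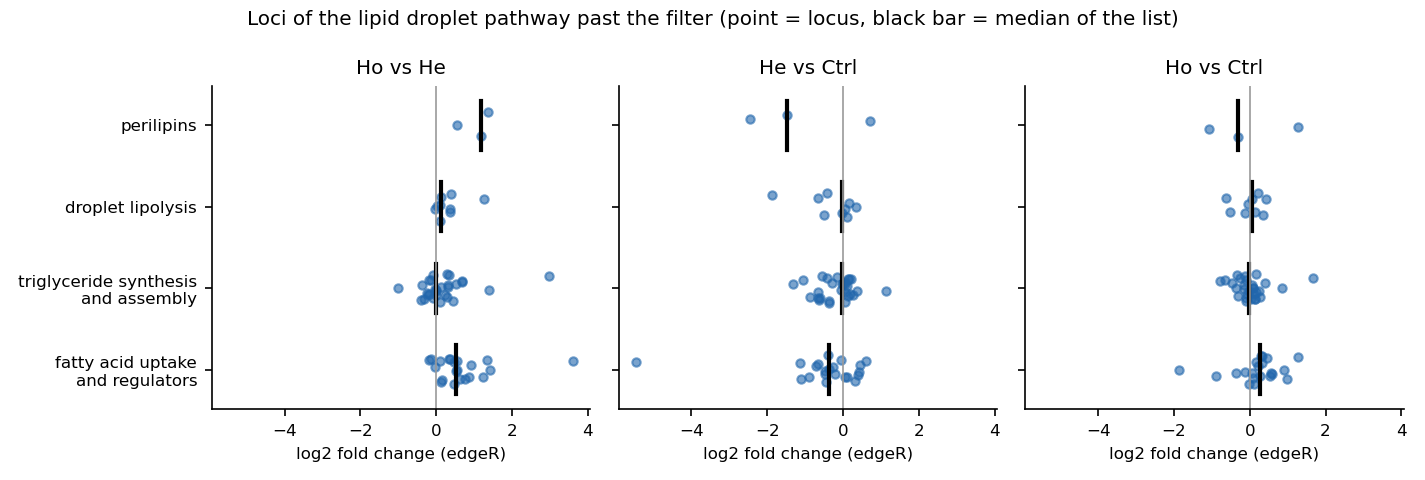
Log2 fold change from edgeR (horizontal axis, the same range in each panel) of every tested locus in the lists for perilipins, droplet lipolysis, triglyceride synthesis and droplet assembly, and fatty acid uptake and regulators. Each point is a locus and the black bar is the median of its list. Between He and Ctrl the 3 tested perilipins have a median of -1.48, with PLIN2 the other way at 0.72. The medians of lipolysis, triglyceride synthesis and fatty acid uptake lie at -0.038, -0.017 and -0.375 there.

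Median log2 fold changes of skin and pigment cell markers lay below 0 between He and Ctrl, as did the values of perilipin 6, M6PRBP1 and pnpla3-like. PLIN2 lay above 0 there, and no direction is given for Pnpla2. Medians also lay below 0 for adipocyte (-0.43), macrophage (-0.28) and vessel endothelium markers (-0.16), whereas that of fast muscle markers was 0.41. Between Ho and He these medians were 0.31, 0.58, 0.058 and -0.29 in the same order. Of these lists DESeq2 passed 1 locus between He and Ctrl, kdr of vessel endothelium (ABG768_014124, -1.14, DESeq2 adjusted p = 0.0303). Its edgeR adjusted p was 0.359. Ho fish were also below Ctrl fish in kdr without overlap (-1.08, DESeq2 adjusted p = 0.0967). Of the 12 endothelial loci tested, 9 lay below 0 and 3 above 0 between He and Ctrl. CDH5 (ABG768_025250) of this list had -0.021 there (edgeR adjusted p = 0.988). Of 86 skin epithelium loci, 54 were tested. Their median log2 fold change was -2.71 between He and Ctrl, -0.49 between Ho and Ctrl and 2.08 between Ho and He. By DESeq2, 18 of them fell in He against Ctrl, as did 1.19% of all loci with an adjusted p. The count of skin loci ran from 1 without Ctrl 1 to 34 without Ctrl 3. It was 6 without Ctrl 2, 7 without He 1 and 3 without He 3. Over all loci, the most calls by DESeq2 in this comparison also came without Ctrl 3. The highest summed level of skin markers (3702 CPM) was in Ctrl 1, the fish with the most perilipin 6, and the lowest (315.6 CPM) was in He 1, the fish with the least. Among He fish the highest sum (605.9 CPM) was in He 2, which also had the most perilipin 6 of its genotype. In Ho the order differed, since Ho 2 had the highest sum (1673 CPM) but not the most perilipin 6. M6PRBP1 was also highest in Ctrl 1 and lowest in He 1, but among Ho fish it was lowest in Ho 2 (3.56 CPM). The pnpla3-like locus was highest in Ctrl 1 and, among Ho fish, in Ho 2, but lowest of all in He 2 (0.529 CPM).

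Melanophore markers summed to 11.6 to 14.16 CPM in Ho, 8.03 to 12.12 CPM in He and 17.75 to 23.96 CPM in Ctrl over 16 loci, of which 7 were tested. Their median log2 fold change was -0.82 between He and Ctrl, -0.89 between Ho and Ctrl and 0.65 between Ho and He. By DESeq2 3 of the 7 fell in He against Ctrl, as did 1.19% of all loci with an adjusted p. These were tyrp1 (ABG768_000374), PMEL and MLANA, genes of the pigment granule. The other tested tyrp1 locus (ABG768_025990), with 120 counts over all fish against 322, did not pass. All 3 calls were lost when any of Ctrl 1, Ctrl 2, He 1 or He 3 was left out, those of tyrp1 and MLANA also without He 2 and that of tyrp1 without Ho 1, while the directions were the same. Of the 16 loci, DCT and the second PMEL locus had 0 counts, while tyrosinase (tyr, ABG768_007177), the first enzyme of melanin synthesis, had 26 counts over all fish. Xanthophore markers, which stand for the cells that hold perilipin 6 in zebrafish, summed to 19.41 to 22.52 CPM in Ho, 17.98 to 18.9 CPM in He and 19.68 to 28.4 CPM in Ctrl over 11 loci. Of these 9 were tested and 0 passed edgeR or DESeq2, with 1 higher and 3 lower at an unadjusted p below 0.05 from edgeR between He and Ctrl. Their median log2 fold change was -0.66 between He and Ctrl, -0.44 between Ho and Ctrl and 0.225 between Ho and He. Summed as TPM, the 11 loci stood at 20.28, 38.29 and 7.23 in Ho, 5.42, 7.48 and 32.65 in He and 14.89, 18.41 and 7.49 in Ctrl. By that measure the genotypes overlapped, so the lower sum in He depended on the measure. He 1 and He 3 were far apart in TPM (5.42 and 32.65) but close in CPM (18.54 and 18.9). Which loci made this gap was not tested, so the TPM sums are uncertain too. The carotenoid-cleaving enzyme BCO2 (ABG768_023041) averaged 6.09 ± 0.270 CPM in Ho, 5.22 ± 1.18 CPM in He and 8.71 ± 1.66 CPM in Ctrl (SD, n = 3 fish each). Its log2 fold change between He and Ctrl was -0.74 (edgeR adjusted p = 0.359). PAX7 (ABG768_016403), which muscle stem cells also express, lay the other way, with a log2 fold change of 0.84 between He and Ctrl (edgeR adjusted p = 0.359). The other tested BCO2 and PAX7 loci (ABG768_007488 and ABG768_003945) had fewer counts over all fish (98 against 1100, and 117 against 464). Iridophore markers, for the silvery pigment cells, summed to 27.04 to 31.77 CPM in Ho, 24.16 to 29.85 CPM in He and 28.22 to 44.76 CPM in Ctrl. Of 8 tested, 7 lay below 0 between He and Ctrl (median -0.44) and 8 between Ho and Ctrl (median -0.29), and 0 passed edgeR or DESeq2, with 1 and 0 at an unadjusted p below 0.05 from edgeR. Slow and oxidative muscle markers, which stand for a tissue that holds perilipin 5 in mammals, summed to 1455 to 3607 CPM in Ho, 1756 to 3152 CPM in He and 2926 to 3845 CPM in Ctrl. Of 28 tested, 24 lay below 0 both between He and Ctrl (median -0.41) and between Ho and Ctrl (median -0.40), and 0 passed edgeR or DESeq2, with 1 and 0 at an unadjusted p below 0.05 from edgeR. All loci tested had medians of -0.0067 and -0.014 in these comparisons. Loci of a list were measured in the same fish, so these counts and those of iridophore markers are not independent results. Macrophage markers, which stand for a cell type that also holds droplets, summed to 124.5 to 257.3 CPM in Ho, 75.67 to 141.4 CPM in He and 97.59 to 187.4 CPM in Ctrl. The part of these cells in the differences of the members was not tested. In bulk tissue, fewer cells of a type and less RNA per cell cannot be told apart.

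**Figure D5:**
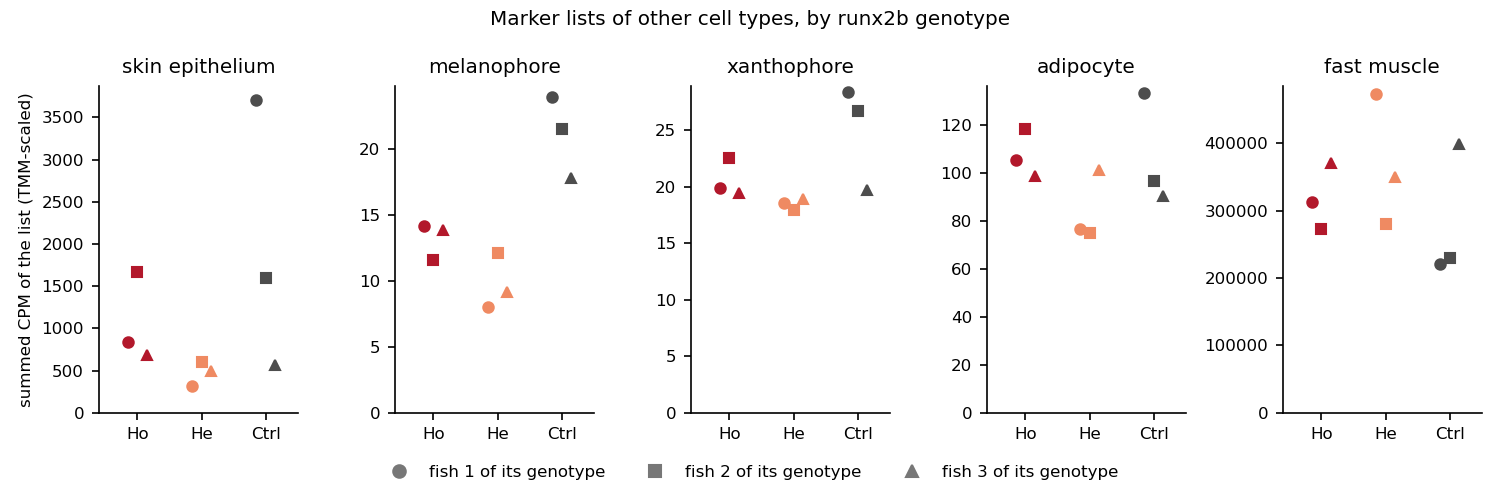
Summed CPM (vertical axis, from 0, a scale of its own in each panel) of marker lists for skin epithelium, melanophores, xanthophores, adipocytes and fast muscle in each fish, by genotype. Symbols mark fish 1 to 3 within a genotype. Skin markers reach 3702 CPM in Ctrl 1 and stay between 315.6 and 605.9 CPM in He. In CPM, melanophore markers lie below every Ctrl fish in all He and Ho fish, but in TPM Ho 2 (11.85) lies above Ctrl 3 (10.85).

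The genes whose pattern was most like that of perilipin 6 were looked up over the 9 fish among 11353 loci with a symbol and a mean of at least 1 CPM. They were dspb (ABG768_014688, desmoplakin, r = 0.969), Krt17 (ABG768_001764, described as a keratin 19-like protein, r = 0.962), ankh (ABG768_017476, r = 0.955), rhcg1 (ABG768_024133, r = 0.953) and SLC7A10 (ABG768_025135, r = 0.949). Desmoplakin anchors keratin filaments at the junctions between epithelial cells, ankh is a pyrophosphate transport regulator, and rhcg1 belongs to the Rh glycoproteins, which carry ammonia. For pnpla3-like the closest were Dapk2 (r = 0.965), Pkp1 (plakophilin 1, another protein of these junctions, r = 0.955) and the locus named cdk7 (ABG768_009231, r = 0.942). M6PRBP1 was closest to Atxn2l (r = 0.953), PI4KA (r = 0.938) and Chst7 (r = 0.930). PLIN2 went with C1ql1 (r = 0.945), usp48 (r = 0.945) and bmp2 (r = 0.943), and Pnpla2 with RASSF1 (r = 0.969), midn-b (r = 0.958) and GAS7 (r = 0.953). These correlations of log2 CPM are descriptions over the same 9 libraries, which share depth and tissue makeup, and the best of many loci are high by selection.

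Among the members themselves perilipin 6 and M6PRBP1 were the most alike, with r = 0.897 over the 9 fish and 0.71 after the genotype means were taken out. PLIN2 and pnpla3-like had r = 0.232 over the 9 fish but 0.825 within genotypes. Perilipin 6 and Pnpla2 ran in opposite directions (r = -0.477, and -0.523 within genotypes). With 9 fish these values are descriptions only.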

How the data were processed

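RNA-seq of 9 fish was used. According to the methods of the study, reads were filtered and aligned to assembly ASM4018292v1 by the authors; the aligner, counter and strand setting were not given in the sources used here. The authors deposited an estimated count per locus (94.3% of the values are whole), which was rounded to whole numbers, and TPM, scaled by the authors per transcript length and library, which gave the levels between genes and an alternative test. The deposited FPKM and the authors' group means were not used. Locus tags were matched to coordinates of the same assembly in RefSeq for all 11 members.

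Loci were kept with filterByExpr, scaled by TMM and fitted in all 9 libraries with the quasi-likelihood test of edgeR 4.0.16 (robust) in R 4.3.3. P-values were adjusted by Benjamini and Hochberg over 14755 loci, and standard errors were taken from the log2 fold change and F. DESeq2 1.42.0 on the same loci and limma 3.58.1 (trend option, log2 TPM with an offset of 1 or 0.1) were alternatives, beside other scalings and filters, fits of only 6 libraries, a block for the replicate number and each fish left out. The scripts were tested on simulated data. Likeness used log2 CPM with a prior count of 2. Limits for 0 used 3 counts, and ratios of sparse loci used exact 95% intervals.

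Named were all members, up to 4 loci per other list with the smallest unadjusted p, the 5 loci most like perilipin 6 and the 3 most like each other member. The members and lists were chosen with earlier results of these data known. Each library is a separate fish, and same-numbered fish of different genotypes were not paired (correlations of their deviations -0.257 to 0.259). Sequences of the members were not used here, nor was the proteome. Figures were drawn with Python 3.11.15, pandas 2.3.3 and matplotlib 3.10.9.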

Additional observations from a re-analysis of the deposited data

How the results depend on the processing

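With edgeR on all 9 fish 0 loci and 0 members passed in each comparison. DESeq2 passed 252 loci and 1 member between He and Ctrl, 63 loci between Ho and Ctrl and 19 between Ho and He. Run on every locus with a count, an alternative chosen after seeing the data, it passed 234 loci and 1 member, 62 loci and 15 loci. With only the 6 libraries of Ho and Ctrl, edgeR passed 8 loci. With each fish left out in turn, by either tool, 0 to 989 loci passed between He and Ctrl, 0 to 534 between Ho and Ctrl and 0 to 134 between Ho and He, the highest counts being those of DESeq2 without Ctrl 3 (989 and 534) and without He 2 (134), whereas edgeR passed at most 115, without Ctrl 3. Members passing ranged from 0 to 3 between He and Ctrl and from 0 to 1 between Ho and He.

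Of 414 recomputed log2 fold changes of members, 392 kept direction and side of the threshold, 12 came past it and 10 turned. Pnpla2 turned between He and Ctrl with library totals (-0.045) and with limma on TPM plus 1 (-0.059) or plus 0.1 (-0.11). Between Ho and He it turned without He 2, Ho 1 and Ho 2 (-0.085, -0.092 and -0.049 by edgeR, -0.086, -0.072 and -0.052 by DESeq2), within a range of -0.092 to 0.39 over all fish left out. Between Ho and Ctrl pnpla3-like turned in DESeq2 without Ctrl 1 (0.016), within a range of -0.996 to 0.016. Library totals shifted the median of all loci to -0.41 between He and Ctrl, -0.24 between Ho and Ctrl and 0.19 between Ho and He. The replicate number as a block passed 0 loci and 0 members in each comparison, and perilipin 6 then had -2.46 between He and Ctrl (adjusted p = 0.347 from edgeR). PLIN2 and perilipin 6 gave no value under a minimum of 10 counts in every library. The depth, with 5 to 179 counts per fish in the members tested, limits every value given here.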
